A study of Homo sapiens with 2 samples.

Results

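The 8 human genes described here code for the methyltransferases that place 5-methylcytosine (m5C) in RNA. These are NOP2, NSUN2, NSUN3, NSUN4, NSUN5, NSUN6, NSUN7 and TRDMT1, and they were chosen by name, with all transcripts that GENCODE v44 assigns to them. They accounted for 81 of the 206696 transcripts listed and for 8 of 59026 genes. Ribosomal RNA-depleted total RNA had been sequenced from untreated HEK293 Flp-In T-Rex cells, a human embryonic kidney line that carries an integration site for tetracycline-regulated transgenes. The libraries formed 1 group of 2, replicate 1 and replicate 2, with no other genotype, treatment or time, and paired values are given in that order. Whether they came from separate cultures was not stated, so the spread given here may be technical.

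Enzymes of the NSUN family and TRDMT1 use S-adenosylmethionine to transfer a methyl group to carbon 5 of cytosine, and the members divide the cellular RNAs between them. NOP2 and NSUN5 act in the nucleolus on the rRNA of the large ribosomal subunit, and NOP2 is also needed for assembly of that subunit. NSUN2 methylates many cytosolic tRNAs, vault RNAs and mRNAs, NSUN6 a small set of tRNAs and mRNAs, and TRDMT1, which resembles DNA methyltransferases, the anticodon loop of a few tRNAs. NSUN3 and NSUN4 are imported into mitochondria, where NSUN3 methylates the wobble base of mt-tRNA Met and NSUN4 the rRNA of the small mitoribosomal subunit. NSUN7 is best known from the testis and sperm motility.

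The depth was 25158962 and 27143860 estimated counts, of which the 8 genes took 7436 and 7794, or 0.0296% and 0.0287%. Counts here are estimated counts that the authors divided by a size factor for each library and are called normalised counts. PAX2, LIN28B, NEFL and NEFM were examined as markers of HEK293 cells. LIN28B and NEFL were at 1982 ± 403 and 1858 ± 14.0 normalised counts (SD, n = 2), but PAX2 and NEFM were low, at 42.0 ± 11.5 and 16.6 ± 2.96. Markers of other cell types were PTPRC and HBB for blood cells, CDH5 and PECAM1 for endothelium and ALB for liver. PTPRC, CDH5 and ALB were listed at 0 in both libraries and PECAM1 was at 0.993 ± 0.0925. The globin gene HBB was not low, at 180.4 ± 2.02, above PAX2 and NEFM. In such bulk samples, fewer cells that express a gene and less RNA per cell cannot be told apart.

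Coding segments by which transcripts of 5 of these genes differ are shown before the values, since the shares of their transcripts are described by them. Each is written 5′ to 3′ in the sense of the transcript, from GENCODE v44 (GRCh38), with the alternative segment in capitals and 15 nt of the adjoining transcript sequence in lower case. The NSUN4 segment is an exon at chr1:46346921-46347075 (plus strand) that NSUN4-204 holds and NSUN4-201 skips. At 155 nt it is not a multiple of 3, and its loss shifts the reading frame.
NSUN4-204: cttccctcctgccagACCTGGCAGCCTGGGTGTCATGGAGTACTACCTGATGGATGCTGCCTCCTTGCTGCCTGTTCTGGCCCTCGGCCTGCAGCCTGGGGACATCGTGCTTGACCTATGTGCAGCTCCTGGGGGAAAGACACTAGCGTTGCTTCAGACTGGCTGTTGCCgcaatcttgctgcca
NSUN4-201: cttccctcctgccaggcaatcttgctgcca

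The NSUN2 segment is an exon of 105 nt, or 35 codons, at chr5:6631873-6631977 (minus strand), which NSUN2-201 holds and NSUN2-206 skips with the frame kept.
NSUN2-201: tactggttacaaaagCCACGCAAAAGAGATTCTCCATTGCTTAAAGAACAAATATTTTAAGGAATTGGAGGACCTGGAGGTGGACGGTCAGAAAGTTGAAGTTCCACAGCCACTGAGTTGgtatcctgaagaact
NSUN2-206: tactggttacaaaaggtatcctgaagaact

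The TRDMT1 segment opens an additional exon of 230 nt in TRDMT1-202 (chr10:17169310-17169539, minus strand). Its coding part of 33 nt runs into the stop codon TAG, which ends the capitals here, and the rest of the exon is not translated.
TRDMT1-202: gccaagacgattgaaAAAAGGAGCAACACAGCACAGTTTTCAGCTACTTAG

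In NOP2 the difference is 12 nt, or 4 codons, at the start of an exon (chr12:6566325-6566336, minus strand), present in NOP2-207 and absent from NOP2-203. In NSUN5 it is 114 nt, or 38 codons, at the start of an exon (chr7:73307644-73307757, minus strand), present in NSUN5-204 and absent from NSUN5-203. Both keep the frame.
NOP2-207: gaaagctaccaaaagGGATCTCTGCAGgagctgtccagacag
NSUN5-204: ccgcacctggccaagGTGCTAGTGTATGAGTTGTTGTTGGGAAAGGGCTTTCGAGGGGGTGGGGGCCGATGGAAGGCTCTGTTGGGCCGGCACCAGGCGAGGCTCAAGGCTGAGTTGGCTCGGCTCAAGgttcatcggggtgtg

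The level of each gene was compared on a length-normalised scale, on which estimated counts were divided by GENCODE v44 transcript length, summed per gene and scaled to 1000000 per library, with the total over all matched transcripts. Of the 81 member transcripts, 8 were counted in another version than that of GENCODE v44 and can have had another length. All values per length given here rest on the GENCODE v44 lengths. NSUN2 was highest, with length-normalised levels of 41.1 and 37.3 and a mean of 39.2 ± 2.67 (SD, n = 2). NOP2 followed with 29.2 and 31.3, a mean of 30.3 ± 1.48. This pair stood above 90.8% and 87.5% of the 19885 protein-coding genes and made up 34.3% and 26.5% of the summed level of the 8 genes.

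NSUN4, NSUN6 and NSUN5 formed a middle set. The length-normalised level of NSUN4 was 15.4 and 14.1, a mean of 14.8 ± 0.938, and that of NSUN6 was 12.2 and 11.8, a mean of 12.01 ± 0.256 (SD, n = 2 each). NSUN5 gave 8.999 in replicate 1 but 14.1 in replicate 2, a mean of 11.5 ± 3.58, and so lay below both other genes in replicate 1, but above NSUN6 and next to NSUN4 in replicate 2. TRDMT1 and NSUN3 were lower, with means of 3.63 ± 0.588 and 2.92 ± 0.0123, above 49.1% and 46.6% of protein-coding genes. TRDMT1 gave 4.05 and 3.22 and NSUN3 gave 2.93 and 2.92, so their values did not overlap.

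NSUN7 (chromosome 4, 40749925 to 40811184) was at the limit of detection. All 7 of its transcripts were listed at 0 in replicate 1, a count that allows up to 3 counts, and the gene held 3 estimated counts in replicate 2, divided between NSUN7-201 and NSUN7-207. The 3′ end of NSUN7 shares 1158 exonic nt with APBB2 on the opposite strand, which held 577 and 490 normalised counts. Of the 50-nt words of the NSUN7 transcripts, 22.1% occur on the opposite strand in other genes. No fold against NSUN7 is given.

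A pair of genes was called different when it had the same order in each library and the means differed by more than the sum of the 2 SDs. By this rule 26 of the 28 pairs of length-normalised levels differed. The exceptions were NSUN5 with NSUN6 and NSUN5 with NSUN4. The 26 include the pairs with NSUN7, which was at the limit of detection. The share called among pairs of all genes was not computed, so the count is not read as a trait of these genes. Of neighbours in the order, NSUN2 exceeded NOP2 by 0.37 and NOP2 exceeded NSUN4 by 1.04 on the log2 scale. NSUN4 exceeded NSUN6 by 0.30, NSUN5 exceeded TRDMT1 by 1.67 and TRDMT1 exceeded NSUN3 by 0.31, whereas the difference of 0.06 between NSUN6 and NSUN5 was within the spread. When only transcripts annotated as protein-coding were summed, the log2 ratio of NSUN4 to NSUN6 turned from 0.30 to -2.46. In normalised counts, which are not divided by length, that of TRDMT1 to NSUN3 turned from 0.31 to -0.29 and was not called.

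**Figure D1:**
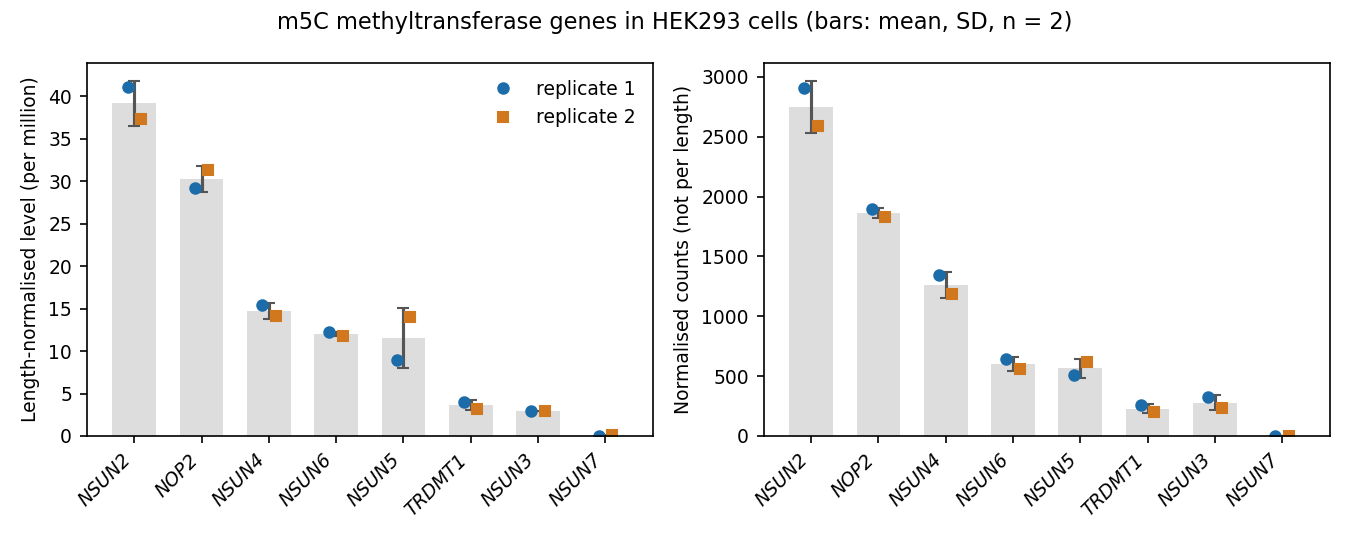
Length-normalised level per 1000000 (left) and normalised counts (right) of the 8 methyltransferase genes; grey bars are means with SD over 2 libraries, and points are the libraries. NSUN2 and NOP2 lie above the other 6 genes in both panels, the points of NSUN5 spread from 8.999 to 14.1 on the left, and NSUN7 is at or near 0.

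The nucleolar enzymes are described first. NOP2 (chromosome 12, 6556863 to 6568691) held 1893 and 1831 normalised counts, a mean of 1862 ± 43.9 (SD, n = 2). Of its 21 transcripts, 10 were above 0 in both libraries and 6 at 0 in both. NOP2-207 took 69.5% and 77.4% of the counts, NOP2-203 took 21.6% and 11.6%, and every other transcript had a mean share below 5%. The shares of NOP2-203 moved beyond their 95% exact intervals, which were 19.7 to 23.6% and 10.3 to 13.1%. These intervals, from rounded estimated counts, cover counting error only. NOP2-207 encodes the same protein of 812 amino acids as the reference transcript of the MANE Select set, NOP2-201, which was listed at 0 in both libraries.

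The exon start shown above, which adds 4 codons to NOP2, was held by transcripts with 74.2% and 83.7% of the counts of those running past it, a mean of 78.9% ± 6.69 (SD, n = 2). Divided by length this was 80.1% ± 6.36. Of the 50-nt words of the NOP2 transcripts, 49.4% also occur in other genes on the same strand. The gene ENSG00000285238, which spans NOP2 on its own strand and shares 2550 of its exonic nt, held 0 and 36.7 normalised counts.

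NSUN5 (chromosome 7, 73302516 to 73308826) held 507 and 621 normalised counts, a mean of 564 ± 80.6 (SD, n = 2), and its main transcripts exchanged order between the libraries. NSUN5-204 had 51.7% and 32.1% of the counts. NSUN5-201 had 23.1% and 48.9%, so the leading transcript changed. NSUN5-203, which lacks the 38 codons shown above, had 17.0% and 5.98%, and the intervals of the libraries did not meet for any of these. NSUN5-206, with a retained intron, was steady at 6.54% and 6.71%. NSUN5-204 encodes 466 amino acids, NSUN5-201 encodes 429 and NSUN5-203 encodes 391.

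Pseudogene copies of NSUN5 lie on the same chromosome. NSUN5P1 held 624 and 697 normalised counts and NSUN5P2 held 348 and 338, each summed over 2 gene entries of that name, so that NSUN5 took 34.3% and 37.5% of the sum of the 3. Of 3599 words of 50 nt in the NSUN5 transcripts, 656 (18.2%) occur on the opposite strand in other genes. On the same strand, 1041 (28.9%) are also found in transcripts of these pseudogenes. The division of such reads between the copies is an estimate, and its part in the change of NSUN5 transcripts was not tested.

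Among the enzymes of tRNA and mRNA, NSUN2 (chromosome 5, 6599239 to 6633291) held 2903 and 2593 normalised counts, a mean of 2748 ± 219 (SD, n = 2). NSUN2-201, which encodes the full protein of 767 amino acids, had 52.7% and 41.3% of these. NSUN2-206, which lacks the exon of 35 codons and encodes 732 amino acids, had 33.6% and 45.8%. The longer form was thus the higher in replicate 1 and the shorter one in replicate 2, and neither could be called the leading transcript. Over all transcripts running past the exon, 62.2% and 48.7% of the counts were on those that hold it, or 51.7% ± 9.67 when divided by length. The models differ also at their ends, and 16.1% of the 50-nt words of NSUN2-201 and 1.87% of those of NSUN2-206 are particular to it within this pair. NSUN2-205, with a retained intron, had 4.93% and 5.38%, and the 4 retained-intron transcripts of NSUN2 together had 10.8% and 10.4%.

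NSUN6 (chromosome 10, 18545561 to 18659285) was represented almost wholly by 1 transcript. It held 645 and 560 normalised counts, a mean of 603 ± 60.1 (SD, n = 2), of which NSUN6-201 had 95% and 91.1%. This transcript encodes the reference protein of 469 amino acids. The other 7 transcripts each had a mean share below 5%. The lncRNA gene ENSG00000240291 overlaps the 3′ end of NSUN6 by 91 nt on the same strand and held 35.8 and 39.1 normalised counts.

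TRDMT1 (chromosome 10, 17137336 to 17202054) had its counts divided among several transcripts. Its total was 257 and 200.3 normalised counts, a mean of 229 ± 40.2 (SD, n = 2). TRDMT1-202, which holds the additional exon with the stop codon shown above and is annotated for nonsense-mediated decay, had 37.6% and 47.5% of these and led in both libraries. TRDMT1-203, which encodes the reference protein of 391 amino acids, had 27.4% and 11.8%. TRDMT1-201 followed with 14.6% and 8.31%, TRDMT1-207 with 11.1% and 8.02%, and TRDMT1-211 with 4.17% and 13.2%. TRDMT1-201 is a fragment without start and end in the annotation, and TRDMT1-207 has no defined coding sequence.

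The additional TRDMT1 exon was in transcripts with 43.9% and 53.5% of the counts of those running past it. This value rested on the unit. Divided by length it fell to 14.0% and 16.7%, where TRDMT1-202 is 8230 nt long, and TRDMT1-201, of 682 nt, then had the highest mean share, 38.4% ± 14.9 (SD, n = 2). TRDMT1-207 starts within the additional exon and so was not among the transcripts running past it. Per length, TRDMT1-207 had 14.9% and 10.8% of the gene, against 10.5% and 13.2% for TRDMT1-202.

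Of the mitochondrial enzymes, NSUN3 (chromosome 3, 94062980 to 94131832) held 321 and 236 normalised counts, a mean of 279 ± 60.1 (SD, n = 2). NSUN3-201, for the reference protein of 340 amino acids, had 89.7% and 82.1%, and NSUN3-204, with a retained intron, had 4.34% and 7.40%. Divided by length, the share of NSUN3-201, a transcript of 6431 nt, was 46.6% ± 12.1. NSUN3 overlaps DHFR2 on the opposite strand by 410 nt without shared exons, and DHFR2 held 161.6 and 148.0 normalised counts. RBBP4P2, a processed pseudogene on the opposite strand that shares 257 exonic nt with NSUN3, held 53.9 and 47.8.

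NSUN4 (chromosome 1, 46340789 to 46365152) held 1341 and 1182 normalised counts, a mean of 1261 ± 111.9 (SD, n = 2). Most were assigned to NSUN4-201, which had 79.8% and 75.5%, and which skips the exon of 155 nt shown above and is annotated for nonsense-mediated decay. NSUN4-204, for the reference protein of 384 amino acids, had 6.85% and 8.72%, and NSUN4-206, also annotated for decay, had 6.83% and 5.59%. The exon was skipped by transcripts with 80.0% and 76.5% of the counts of those running past it. Divided by length, transcripts that hold it had 41.9% and 43.96%, and NSUN4-201 kept the highest share with 55.6% ± 2.82 (SD, n = 2). Those that hold it include NSUN4-206 and NSUN4-202, both annotated for decay, with mean shares of the gene of 20.95% and 8.24% per length.

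The models of this pair limit how far they can be separated. In GENCODE v44, NSUN4-201 and NSUN4-204 are 4344 and 4347 nt long, and 201 of 4295 words of 50 nt in the first (4.68%) and 204 of 4298 in the other (4.75%) are particular to it. NSUN4-204 was listed in version 5 in the tables and is in version 6 in GENCODE v44, so the model counted can have had another length. The same held for the MANE Select transcript of each of the 8 genes, and for 93.5% of the 18346 such transcripts listed. The part of these models in the NSUN4 shares was not tested.

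**Figure D2:**
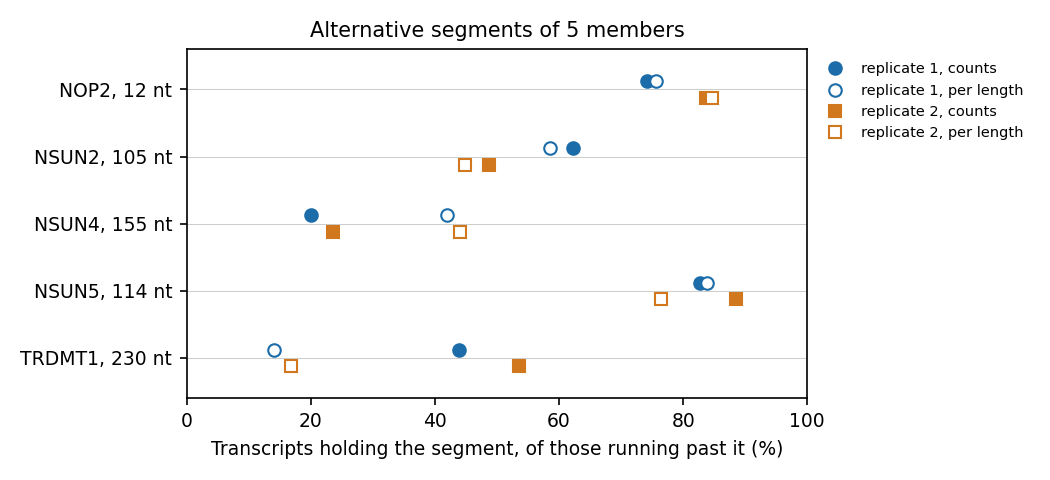
Share of counts, in percent, on transcripts that hold each alternative segment, among those running past it, for 2 libraries and in counts (filled) or counts per length (open). For NSUN4 the filled points lie at 20.0 and 23.5%, and the TRDMT1 points fall from 43.9 and 53.5% in counts to 14.0 and 16.7% per length.

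Across the family, transcripts annotated as protein-coding held most of the counts of 5 genes and the minority in NSUN4 and TRDMT1, a split that depended on the unit for NSUN3 and TRDMT1. Their mean share was 96.2% ± 1.24 in NOP2, 95.1% ± 1.497 in NSUN6, 89.4% ± 3.40 in NSUN5, 86.7% ± 0.562 in NSUN2 and 85.9% ± 5.38 in NSUN3 (SD, n = 2 each). It was 35.9% ± 11.2 in TRDMT1 and 13.1% ± 2.88 in NSUN4. Per length it was 46.6% ± 12.1 in NSUN3, 50.5% ± 9.42 in TRDMT1 and 12.6% ± 2.58 in NSUN4, and from 78.0% to 87.3% in the other 4 genes. The median over the 7 genes that reached a mean of 10 was 86.7% in counts and 78.0% per length, against 92.6% and 82.6% over 13955 protein-coding genes with that minimum.

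Transcripts annotated for nonsense-mediated decay, a pathway that degrades mRNAs with a premature stop codon, held 88.7% and 83.6% of NSUN4 and 41.7% and 60.7% of TRDMT1. In the other 5 genes their mean share ranged from 0.292% to 2.71%. Such a transcript led in both libraries in 2 of the 7 genes, where 3.31% of 12915 protein-coding genes with several transcripts had one in the lead. In TRDMT1 this lead was lost per length, as given above, with a decay share of 26.3% ± 12.6, whereas NSUN4 had 84.8% ± 5.10. In NSUN3, transcripts without a defined coding sequence had 7.32% ± 4.45 in counts and 34.7% ± 18.2 per length.

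**Figure D3:**
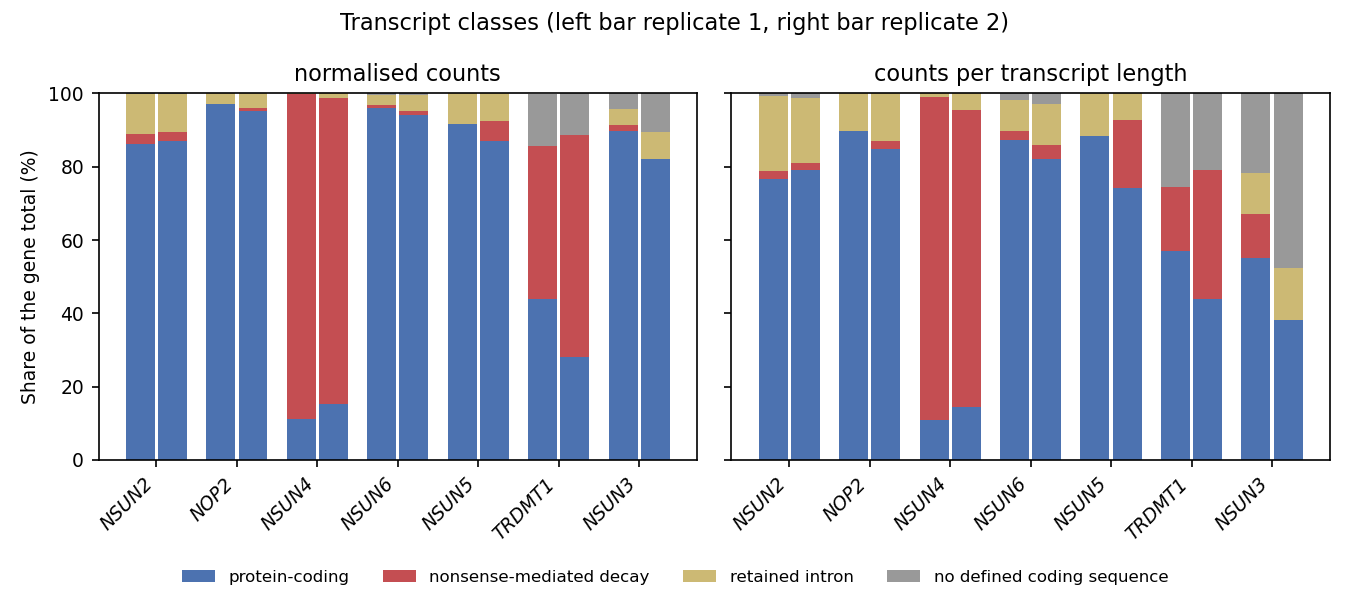
Share of each gene total, in percent, by annotated transcript class in normalised counts (left) and in counts per transcript length (right); for each gene the left bar is replicate 1 and the right bar replicate 2. The decay class fills 88.7 and 83.6% of NSUN4 on the left and has 88.4 and 81.2% of it on the right, while for TRDMT1 it goes from 41.7 and 60.7% to 17.4 and 35.2%.

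The share of counts on transcripts with exactly the coding exons of the MANE Select transcript was set beside this. It was 93.0% ± 2.79 in NSUN6, 85.9% ± 5.38 in NSUN3, 73.5% ± 5.60 in NOP2, 47.0% ± 8.08 in NSUN2, 41.9% ± 13.8 in NSUN5, 19.6% ± 11.02 in TRDMT1 and 7.79% ± 1.32 in NSUN4 (SD, n = 2 each). The median was 47.0% in counts and 39.3% per length, against 65.5% and 45.8% over 13607 protein-coding genes. In counts NSUN4 was lowest of the 7 genes, whereas per length TRDMT1 was lowest with 3.48% ± 1.96, below NSUN4 with 5.56% ± 0.878, and NSUN3 had 46.6% ± 12.1.

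**Figure D4:**
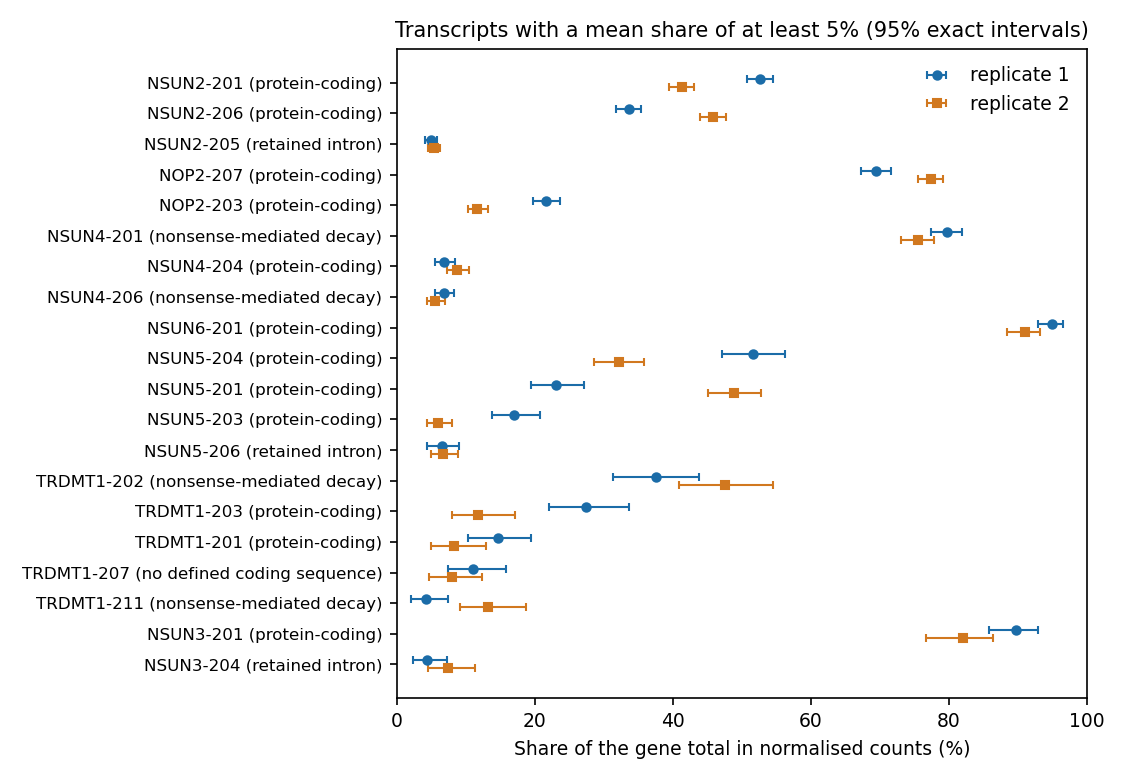
Share of the gene total in normalised counts, in percent, of the 20 transcripts whose mean share was 5% or more, with 95% exact intervals for counting error; circles are replicate 1 and squares replicate 2. NSUN2-201 and NSUN2-206, and NSUN5-204 and NSUN5-201, exchange order between the libraries, while NSUN6-201 and NSUN4-201 stay in the lead.

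Between the libraries the gene totals differed less than the transcripts. None of the 7 measured genes differed by more than 1.5-fold in normalised counts, where 17.4% of 19110 genes at a mean of 10 or more did. That share is over genes from a mean of 10, whereas the lowest mean of the 7 was 229, in TRDMT1. The 2 sets were thus not matched for abundance. The largest difference was in NSUN3, 1.36-fold, or -0.44 on the log2 scale (replicate 2 minus replicate 1). The differences of the others were -0.36 for TRDMT1, -0.20 for NSUN6, -0.18 for NSUN4, -0.16 for NSUN2, -0.05 for NOP2 and 0.29 for NSUN5. On the length-normalised scale NSUN5 alone passed 1.5-fold, with the values given above. NSUN5-205, a transcript of 471 nt annotated for decay, had 0% of that level in replicate 1 and 18.7% in replicate 2. With transcripts annotated as protein-coding only, the level of NSUN5 was 9.19 ± 1.74 (SD, n = 2).

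Of the 39 member transcripts at a mean of 10 or more normalised counts, 17 differed by more than 1.5-fold, against 48.7% of 65698 transcripts. The largest such differences among those with a share of at least 5% were 2.98-fold for TRDMT1-203, lower in replicate 2, and 2.59-fold for NSUN5-201, higher in replicate 2. The leading transcript differed between the libraries in 2 of the 7 genes, NSUN2 and NSUN5, against 21.5% of 16735 genes with several transcripts. The shares of changed transcripts and leaders are thus near those over the whole table. In all, 47 of the 81 transcripts were above 0 in both libraries, 13 in 1 of them and 21 in neither.

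**Figure D5:**
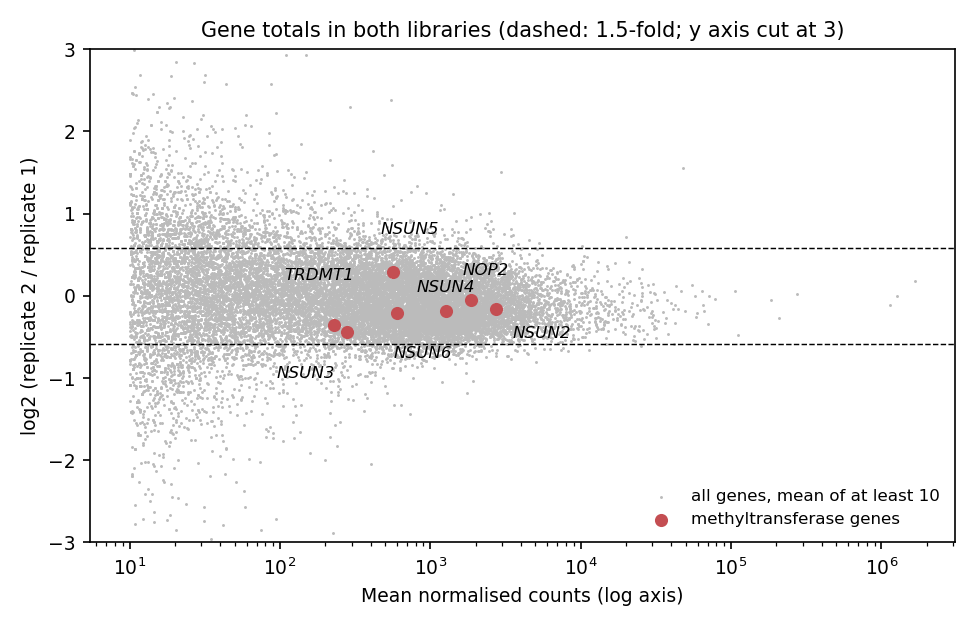
Log2 ratio of replicate 2 to replicate 1 against mean normalised counts (log axis) for genes with a mean of at least 10 and counts in both libraries, in grey, and for 7 methyltransferase genes in red; the y axis is cut at 3. All 7 red points lie between -0.44 and 0.29, within the dashed lines at 1.5-fold.

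Genes that bind or act on m5C, partners and related enzymes were described from a list of 17, of which 13 reached a mean of 10 normalised counts and 0 of these differed by more than 1.5-fold between the libraries, against the 17.4% of all genes given above. This comparison was not matched for abundance either. On the length-normalised scale YBX1, a cold shock protein that binds m5C in mRNA, reached 353 ± 16.6, and ALYREF, an export adaptor that binds m5C, reached 67.9 ± 0.419 (SD, n = 2 each), both above NSUN2. MTERF4, the partner of NSUN4 in the mitoribosome, had a level of 9.93 ± 1.67, below that of NSUN4 over all transcripts. With transcripts annotated as protein-coding only, NSUN4 was at 1.85 ± 0.263, and MTERF4 was not computed in this way. ALKBH1, which oxidises the m5C that NSUN3 places in mt-tRNA Met, had 9.10 ± 0.217, above that of NSUN3.

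The dioxygenases TET1, TET2 and TET3, which oxidise 5-methylcytosine in DNA and can do so in RNA, had length-normalised levels of 7.44 ± 0.692, 2.35 ± 0.0414 and 3.32 ± 0.474 (SD, n = 2 each). Of the DNA methyltransferases to which TRDMT1 is related, DNMT1, which maintains DNA methylation, had 69.6 ± 2.84, DNMT3B had 9.58 ± 0.929 and DNMT3A had 5.40 ± 0.661, all above TRDMT1 in both libraries.

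Of the RNAs these enzymes methylate, 5 were on the list of 17. MT-RNR1, the small subunit rRNA that NSUN4 methylates, held 3754 and 4702 normalised counts, although rRNA had been depleted. MT-TM, the mt-tRNA Met methylated by NSUN3, held 4.23 and 7.42. The vault RNAs VTRNA1-1, VTRNA1-2 and VTRNA1-3, targets of NSUN2, held 5.29 and 6.49, 3.17 and 6.49, and 0 and 1.85, and no difference among them could be read from so few counts. The tables give no measure of m5C itself.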

How the data were processed

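RNA-seq of 2 libraries of HEK293 Flp-In T-Rex cells (TruSeq, rRNA-depleted) was used. The deposited tables list each transcript with its estimated count from RSEM, which the authors did not divide by length or depth, and a normalised signal, which is the estimated count divided by the size factor of the library (0.945 and 1.08). The submitters' processing notes name FastQC, STAR 2.7.0d, RSEM 1.3.3 and R 3.6.3, and the study gives Ensembl release 104 (GRCh38) for its alignments. Whether the counts were made with this release could not be settled. Of the MANE Select transcripts, 93.5% were listed in another version than in GENCODE v44. The strand setting was not given in the sources used here.

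By identifier without version, 202217 of 206696 transcripts were found in GENCODE v44, with 96.9% and 96.8% of the counts. Of the 81 member transcripts, 73 had the same version. Tables of METTL8 transcripts repeat values of the full tables (17 of 17 in each library) and were not used. Length-normalised levels carry no effective length correction. As there was 1 group, no test was made. The libraries correlated with Pearson's r of 0.983 across genes (log2 of normalised count + 1), and over transcripts the chi-square of the rounded counts, divided by the degrees of freedom, was 27.3, a value that includes the uncertainty of assigning reads to transcripts, and each was counted as 1 replicate.

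The members and lists were chosen with earlier results of these data known. Named were the 8 genes, their transcripts whose mean share was 5% or more, the list of 17 related genes and overlapping genes that reached a mean of 10; other transcripts and overlapping genes with lower counts, the shares by alternative segment and the shares by MANE Select coding exons were chosen after values were seen. NSUN7 was left out of medians and counts over members, which the plan had set for 8 genes, as it had no counts in replicate 1. The scripts for the fold and leading-transcript calls were tested on simulated data with known changes. The simulated counts held Poisson error only, a narrower spread than that between the libraries. The test therefore checks the scripts and cannot tell how often such calls arise in these data. Python 3.11.15, pandas 2.3.3, NumPy 2.4.6, SciPy 1.17.1 and matplotlib 3.10.9 were used.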

Additional observations from a re-analysis of the deposited data

How the results depend on the processing

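No paired analysis was possible because the libraries form 1 group. Calls that need both libraries could not be made with 1 left out. The median protein-coding share of the 7 measured genes, 86.7%, was 78.0% with counts divided by length, 88.9% with transcripts below 1 normalised count in either library left out, and 87.0 to 89.7% with 1 library left out. With transcripts of an unchanged version only it was 27.6%, since all 8 transcripts that this leaves out are MANE Select transcripts. The number of genes over 1.5-fold between the libraries went from 0 to 1 on the length-normalised scale. The log2 ratio of NSUN4 to NSUN6 was reversed to -2.46 with protein-coding transcripts only, and that of TRDMT1 to NSUN3 to -0.29 in normalised counts; the ratio of TRDMT1 to NSUN3 was not called with protein-coding transcripts only either. The number of pairs called, 26 of 28, was 24 with protein-coding transcripts only, 27 with the filter on low transcripts and 26 with an effective length, 200 nt shorter. The levels depend on the denominator: NSUN2, at 39.2, was at 92.1 when scaled to protein-coding genes alone and 20.2 with effective lengths. Depth limits NSUN7, where 3 counts are the floor, and shares within TRDMT1, which rest on 243 and 216 estimated counts.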
